A study of Mus musculus with 6 samples.

Results

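A total of 3319 stretches of mouse chromatin carried a called H3K27ac peak in the proximal forelimb but not in the distal forelimb and overlapped a peak of HOXA13 or HOXD13 (together HOX13). The proximal forelimb (PFL) holds the presumptive upper arm and forearm, and the distal forelimb (DFL) the presumptive digits. A region was a member if it stood in the PFL H3K27ac list, shared no base with any DFL H3K27ac region and overlapped at least 1 bp of a region of either HOX13 list. The members made up 4.78% of the 69503 PFL H3K27ac regions on chromosomes 1 to 19 and X. They were 12.53% (Wilson 95% interval 12.1 to 12.9) of the 26481 PFL-only regions and 15.7% of the 21178 PFL regions with HOX13. These shares follow from the rule, since the members were chosen by the measured peaks of both H3K27ac lists and both HOX13 lists, so they are a description and support nothing.

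All embryos were wild type, of the strain labelled B6CBAF1, and the PFL and DFL libraries were made at E12.5 for H3K27ac, H3K27me3 and CTCF. Each mark in each piece had 1 ChIP-seq library, made from pooled tissue, and so no difference given here has a replicate check and no p-value was computed. The intervals are Wilson 95% intervals over regions and cover counting error only. The HOXA13 and HOXD13 lists were made from whole forelimbs of a younger stage, have no sample in the series, and therefore do not tell whether the factor was bound in proximal or in distal cells. Peaks of a piece dissected as bulk tissue also cannot tell a region used by few cells from one used weakly by many.

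Acetylation of histone H3 at lysine 27 (H3K27ac) marks promoters and enhancers in use, while H3K27me3 is laid down by Polycomb repressive complex 2 and marks silenced developmental genes. HOXA13 and HOXD13 are the last HOX proteins to be switched on along the limb, are made mainly in the future hand, and bind AT-rich DNA through their homeodomain. CTCF binds DNA through zinc fingers and stands at many boundaries between topological domains. In the HoxD locus, the gene desert on the telomeric side of the cluster (T-DOM) acts in the proximal limb and that on the centromeric side (C-DOM) in the digits.

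As examples of HOX13 peaks of members, and not as a typical set, DNA is given for 6 members with both factors. They are that with the highest HOX13 fold (within Ntm), those near Pkdcc and Tbx18, and those of the HoxA and HoxD loci described below. Each sequence is the mm10 plus strand from 100 bp before to 100 bp after the strongest HOX13 summit, and none overlaps an annotated exon. Capitals mark, in either orientation, the MEIS letters CTGTCA, the HOX13 letters CAATAAA with their CpG form TCGTAAA, which were searched throughout, and the further forms CCATAAA together with TCATAAA, which were added after seeing the data.
Ntm member: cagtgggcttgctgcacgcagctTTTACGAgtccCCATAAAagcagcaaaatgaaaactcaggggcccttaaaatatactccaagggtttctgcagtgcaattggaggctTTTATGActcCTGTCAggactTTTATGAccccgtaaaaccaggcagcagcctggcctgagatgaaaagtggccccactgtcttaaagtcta
Pkdcc member: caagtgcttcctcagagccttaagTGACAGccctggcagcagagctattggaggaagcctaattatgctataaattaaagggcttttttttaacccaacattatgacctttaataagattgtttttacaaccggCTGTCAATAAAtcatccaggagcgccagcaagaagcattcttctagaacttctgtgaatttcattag
Tbx18 member: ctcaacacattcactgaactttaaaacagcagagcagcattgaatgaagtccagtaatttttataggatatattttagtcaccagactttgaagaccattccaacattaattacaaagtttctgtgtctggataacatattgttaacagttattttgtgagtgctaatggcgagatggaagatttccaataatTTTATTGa
Hnrnpa3 member: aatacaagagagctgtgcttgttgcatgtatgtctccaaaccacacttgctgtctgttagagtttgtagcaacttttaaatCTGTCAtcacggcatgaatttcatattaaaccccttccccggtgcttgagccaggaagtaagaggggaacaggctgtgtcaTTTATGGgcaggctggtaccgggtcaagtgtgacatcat
Hoxa11 member: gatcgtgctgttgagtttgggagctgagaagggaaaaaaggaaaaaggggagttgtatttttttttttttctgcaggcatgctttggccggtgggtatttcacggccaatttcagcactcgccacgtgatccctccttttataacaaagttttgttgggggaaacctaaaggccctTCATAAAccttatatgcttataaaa
Mtx2 member: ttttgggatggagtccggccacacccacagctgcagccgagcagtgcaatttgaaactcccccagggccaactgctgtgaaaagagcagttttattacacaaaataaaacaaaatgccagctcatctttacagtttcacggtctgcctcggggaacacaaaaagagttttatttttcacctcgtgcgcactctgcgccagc
These windows lie at chr9:29318840-29319040 (Ntm, intron), chr17:83167094-83167294 (Pkdcc, intergenic), chr9:87774465-87774665 (Tbx18, intergenic), chr2:75439971-75440171 (Hnrnpa3, intron of Gm13658), chr6:52244726-52244926 (Hoxa11, promoter) and chr2:75000447-75000647 (Mtx2, intergenic). The Ntm window held 4 HOX13 matches, of which TTTACGA alone was of the letters searched throughout, and 1 MEIS match. In the Pkdcc window a CTGTCA and a CAATAAA overlapped by their shared CA. The Tbx18 and Hoxa11 windows held 1 HOX13 match each, and the Hnrnpa3 window 1 HOX13 and 1 MEIS match. The HOX13 matches of Hoxa11 and Hnrnpa3 were of the further forms, so with the letters searched throughout these windows held no HOX13 match. The Mtx2 window held no match of any of these letters, although its HOX13 folds were 11.1 for HOXA13 and 12.3 for HOXD13. No match was also found in the windows read but not printed, nearest to Pdgfrl, Btrc, Kcnh2 and Npvf, so 5 of the 10 windows read held none. Matches are thus more frequent among the printed windows than among all members, of which 38.4% held 1 or more of the 4 HOX13 letter forms. No match says only that these letters are not within the window.

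The members were weak and short H3K27ac regions. The fold, which is the peak caller's ratio of the summit to the local background, had a median of 2.53 in members, against 2.43 in PFL-only regions without HOX13, 2.52 in DFL-only regions with HOX13, 3.86 in shared PFL regions with HOX13 and 2.88 in all PFL regions. Median lengths were 345 bp in members, 309 bp in PFL-only regions without HOX13, 348 bp in DFL-only regions with HOX13, 806 bp in shared regions with HOX13 and 473 bp in all PFL regions. A −log10 q of at least 5 was reached by 48.3% of members, 39.5% of PFL-only regions without HOX13, 54.3% of DFL-only regions with HOX13 and 87.9% of shared regions with HOX13. The members were thus close in height to the other regions called in 1 piece, and well below the shared ones, as the plot of fold distributions shows.

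**Figure D1:**
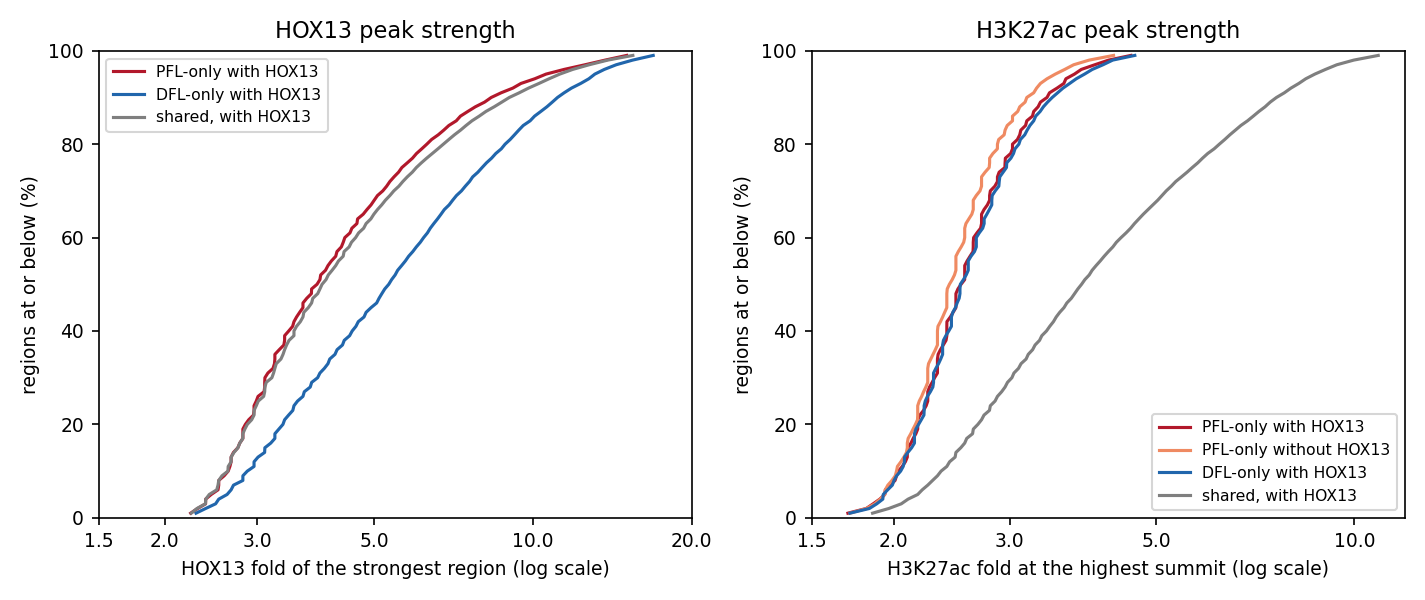
Cumulative shares of regions by fold over background, on log axes, for the strongest overlapping HOX13 region (left) and for H3K27ac (right), with 1 curve per class of regions. The H3K27ac curves of members (median 2.53) and of DFL-only regions with HOX13 (median 2.52) nearly coincide, whereas the HOX13 curve of members (median 3.89) lies to the left of that of DFL-only regions (median 5.32).

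Being outside the DFL list did not mean that DFL signal was absent. The summit of a member was covered by 24 to 374 extended reads, with a median of 36 over a median background of 12 reads, as computed from the deposited fold together with its −log10 p. The lowest summit in the DFL list was covered by 25 reads, and 1849 members (55.7%) stood below 1.5 times that height in PFL. Another 557 members (16.8%) stood at 2 times that height or more. A DFL region lay within 1 kb of 25.6% of members, against 18.1% of PFL-only regions without HOX13. The DFL height at the members themselves is not in the lists.

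Close to the edge of the rule, 134 members lay less than 100 bp from a DFL region, and 148 regions with HOX13 were left out for an overlap of less than 100 bp. Just inside were members near Ndufaf8 (touching a DFL region, fold 2.1), Ell2, Antxr2 and Auts2 (1 bp away, folds 2.48, 2.64 and 2.48) and Ctnnbip1 (2 bp, fold 2.06). Just outside were regions near Ttll7 (2 bp shared, fold 2.54), Tcf7l2 (3 bp, fold 2.34), Zcchc2, Cmpk2 and Cemip2 (5 bp each, folds 2.80, 2.02 and 2.4). The folds on both sides of this edge overlapped.

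The 10 members with the highest H3K27ac fold among those with a −log10 q of at least 5 were nearest to Btrc, Kif2a, Kcnh2, Setbp1, Shox2, Pde4d, Cdk5r1, Tmem247, Ndn and Rab28. The strongest, chr19:45301705-45302069 in an intron of Gm28578 and 61682 bp from a start of Btrc, an F-box protein of an SCF ubiquitin ligase, had a fold of 7.86 and a summit of 104 reads. The member nearest to Shox2, a homeobox gene needed for the proximal limb skeleton, lay at chr3:66798540-66799367, 179080 bp from its start, with an H3K27ac fold of 5.83, a HOXA13 fold of 12.2 and a HOXD13 fold of 10.3. A single member of these 10 was a promoter, at chr5:24351863-24352685 by Kcnh2, a potassium channel gene, with a fold of 5.95. The nearest DFL H3K27ac region was 24037 bp away for Btrc, 96263 bp for Shox2 and 22280 bp for Kcnh2.

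The factors called at HOX13 peaks differed between the classes. Both factors were called at 1657 members (49.9%), HOXA13 alone at 1432 (43.1%) and HOXD13 alone at 230 (6.93%). Both factors were called at 66.0% of DFL-only regions with HOX13 and at 62.8% of shared regions with HOX13. The strongest HOX13 fold had a median of 3.89 in members, 5.32 in DFL-only regions and 3.98 in shared regions, and reached 5 in 32.0% of members, 54.4% of DFL-only regions and 34.9% of shared regions. Members therefore had lower HOX13 folds than their distal counterparts, with H3K27ac of like height.

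The strongest HOX13 summit stood inside the H3K27ac region in 42.0% of members, 26% of DFL-only regions and 65.2% of shared regions. Its median distance from the H3K27ac summit was 220 bp in members, 276 bp in DFL-only regions and 279 bp in shared regions. Members and HOX13 peaks did not pair one to one, since the 3319 members had 3154 distinct strongest HOX13 summits and 330 members shared a summit with a neighbour.

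The members with the highest HOX13 fold were nearest to Ntm, Pdgfrl, Parp16, Colec12, Rrm2b, Tmco5, Atp6ap2, Cdv3 and Fez1, with Rrm2b, a ribonucleotide reductase subunit gene, named by a pair of members that share a HOX13 summit. At chr9:29318173-29318759, in an intron of Ntm, which encodes the cell adhesion protein neurotrimin, HOXA13 had a fold of 25.2 and HOXD13 a fold of 26, while the H3K27ac fold was 3.03. At chr8:40981869-40982133, in an intron of the PDGF receptor-like gene Pdgfrl, the folds were 21.6 for HOXA13, 17.7 for HOXD13 and 2.56 for H3K27ac. All 10 members had both factors and none overlapped an H3K27me3 or CTCF region of either piece. A PFL H3K27me3 region nonetheless lay 1584 to 3159 bp from the members of Ntm, Pdgfrl, Parp16, Tmco5, Cdv3 and Fez1. It was 118598 to 411472 bp away for those of Colec12, Rrm2b and Atp6ap2. A DFL H3K27me3 region lay this close for Parp16 and Fez1 alone, at 2677 and 1581 bp. Over all members, 415 of 3319 lay within 10 kb of a PFL H3K27me3 region. H3K27ac folds of the 10 members ran between 2.33 and 4.66, against a median of 2.53 over all members. The 99th percentile was 4.58, which the higher of the Rrm2b pair passed.

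Next, the members were compared with lists that the rule did not use. H3K27me3 of PFL overlapped 122 members, or 3.68% (3.09 to 4.37), against 3.10% of PFL-only regions without HOX13, 1.40% (1.12 to 1.76) of DFL-only regions with HOX13, 2.97% of shared regions with HOX13 and 3.91% of all PFL regions. H3K27me3 of DFL overlapped 81 members, or 2.44% (1.97 to 3.02), against 2.58% of PFL-only regions without HOX13, 0.269% (0.160 to 0.451) of DFL-only regions with HOX13, 1.72% of shared regions with HOX13 and 2.73% of all PFL regions. The share of members was therefore near the background of PFL regions for both lists. Among the 1061 members with a HOX13 fold of at least 5, however, it was 2.07% (1.37 to 3.12) for PFL and 1.32% (0.788 to 2.20) for DFL, below both backgrounds. Set against all DFL-only regions with HOX13, the share over all members was higher for both lists. It was more so for H3K27me3 of DFL, the piece in which those regions carry H3K27ac. With a HOX13 fold of at least 5, DFL-only regions had 1.27% (0.92 to 1.76) for PFL, which overlaps the interval of members. For DFL they had 0.0353%, with intervals apart. At this fold the difference thus held beyond the intervals for H3K27me3 of DFL but not for that of PFL.

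H3K27me3 called in DFL alone was rare among members, as it was among all PFL regions. Only 8 members (0.241%) overlapped H3K27me3 of DFL and not of PFL, whereas 49 (1.48%) overlapped it in PFL and not in DFL. Over all PFL regions these shares were 0.304% and 1.48%, so members stood near the background in both. The 8 were nearest to Zfp281, Dact1, Actn2, Osr2, Pkdcc, Hoxd8, Creb3l1 and Zfp536, and those of Actn2, Osr2, Hoxd8 and Creb3l1 were promoters. A PFL H3K27me3 region lay close to these promoters, at 166, 218, 326 and 191 bp in this order. For the rest of the 8 it was 10080 to 98309 bp away. Pkdcc encodes a secreted kinase needed for long bone growth, and Osr2 a zinc finger factor of limb mesenchyme and joints. The DFL H3K27me3 list was the shorter one, with 9083 regions against 13873 in PFL, and the part of this in the 8 and 49 was not tested. Genes nearest to the most members with H3K27me3 in either piece were Npvf with 4, Tmtc1 with 3, and Alx1, Fbxo11, Npy1r and Rfx4 with 2 each.

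CTCF overlapped more members than regions of either class called in 1 piece, though not under each setting. PFL CTCF overlapped 271 members, or 8.17% (7.28 to 9.15), against 5.31% of PFL-only regions without HOX13, 4.3% of DFL-only regions with HOX13, 18.2% of shared regions with HOX13 and 12.7% of all PFL regions. DFL CTCF overlapped 7.62% of members, 5.0% of PFL-only regions without HOX13, 4.67% of DFL-only regions with HOX13, 18.6% of shared regions with HOX13 and 12.7% of all PFL regions. The share of members was thus above those of the other regions called in 1 piece and below the background of PFL regions, in both lists. Split into 4 classes of region length from short to long, PFL CTCF overlapped 7.74%, 10.4%, 8.82% and 6.40% of members, against 4.87%, 5.52%, 5.70% and 5.18% of PFL-only regions without HOX13, with overlapping intervals in the longest class (5.10 to 8.01 in members, 4.62 to 5.79 in PFL-only regions). With a HOX13 fold of at least 5 the excess over the proximal class was gone, at 5.75% of members and 5.66% of PFL-only regions without such a peak, against 3.04% of DFL-only regions.

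None of the 4 lists of H3K27me3 and CTCF overlapped 2920 members (88.0%). This share was 83.1% in all PFL regions, 91.6% in PFL-only regions without HOX13 and 93.7% in DFL-only regions with HOX13. All 4 lists overlapped 10 members (0.301%), against 0.544%, 0.384% and 0.0960% in the same classes, so this was no more frequent in members than in all PFL regions. The 10 were nearest to Vrk1, Pde4d, Sema5b, Rbbp8, Cbln2, Prkg1, Zbtb8a, Rbpms, Npy1r and Esam.

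**Figure D2:**
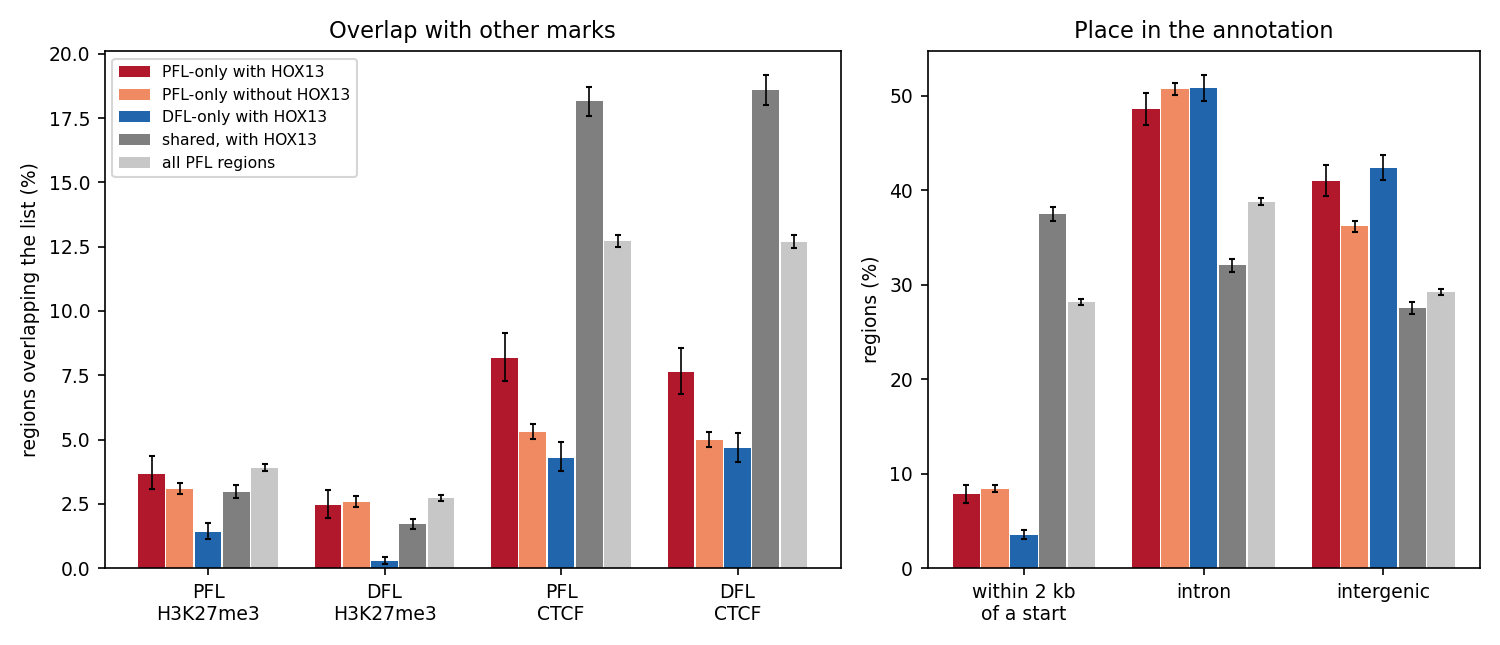
Percent of regions that overlap each list (left) or lie within 2 kb of a start, in introns or in intergenic DNA (right), for members, the 3 compared classes and all PFL H3K27ac regions, with Wilson 95% intervals as error bars. For PFL CTCF the members (8.17%) stand above PFL-only regions without HOX13 (5.31%) and DFL-only regions with HOX13 (4.3%), and for promoters (7.80%) far below shared regions (37.5%).

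Few members stood at promoters. A protein-coding start lay within 2 kb of 259 members, or 7.80% (6.94 to 8.77), against 8.43% of PFL-only regions without HOX13, 3.53% of DFL-only regions with HOX13, 37.5% of shared regions with HOX13 and 28.2% of all PFL regions. Introns held 48.6% of members, intergenic DNA 41.0% and exons 2.59%. The median distance to a start was 58860 bp in members, 37178 bp in PFL-only regions without HOX13, 65741 bp in DFL-only regions with HOX13 and 16239 bp in shared regions with HOX13. Over 100 kb from any start were 34.3% of members, 24.4% of PFL-only regions without HOX13, 38.1% of DFL-only regions with HOX13 and 19.4% of all PFL regions. By median distance and by the share over 100 kb, members thus lay between the 2 other classes called in 1 piece and nearer to the distal one, while by the share within 2 kb of a start they lay nearer to the proximal one.

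Within the members, the shares of CTCF, H3K27me3 and promoters moved with HOX13 fold. From the 862 members with a HOX13 fold under 3 to the 1396 at 3 to 5, the 856 at 5 to 10 and the 205 at 10 and over, PFL CTCF overlapped 11.6%, 7.88%, 5.96% and 4.88%. PFL H3K27me3 overlapped 6.50%, 3.15%, 2.45% and 0.488%, and promoters made up 11.1%, 7.74%, 5.37% and 4.39%. All 3 shares were thus lower at each step. Intervals were apart between a fold under 3 and 3 to 5 for CTCF and H3K27me3, and overlapped between all other neighbouring steps. The last H3K27me3 share was 1 member of 205 (0.0862 to 2.71). Over 100 kb from a start were 31.9%, 34.2%, 37.6% and 32.2%, which did not follow the steps. The median H3K27ac fold moved little over the same steps, at 2.56, 2.52, 2.54 and 2.48.

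The DNA under the HOX13 summits was then searched for fixed letters on both strands, within 100 bp of the strongest summit. HOX13 letters, CAATAAA or the CpG form TCGTAAA, were in 567 members, or 17.1% (15.8 to 18.4), against 18.6% (17.6 to 19.7) of DFL-only regions with HOX13, 14.1% of shared regions with HOX13 and 20.4% of all HOXA13 regions. The AT-rich form alone was in 13.7% (12.6 to 14.9) of members and 16.8% (15.8 to 17.9) of DFL-only regions, while the CpG form was in 3.86% (3.25 to 4.57) of members and 2.15% (1.79 to 2.58) of DFL-only regions. Within windows of under 40%, 40 to 50% and at least 50% GC, the AT-rich form was in 24%, 12.3% and 7.74% of members, against 22.3%, 16.1% and 8.29% of DFL-only regions, so it was lower in members beyond the intervals in the middle class alone and turned round below 40% GC. The CpG form was in 3.02%, 4.41% and 3.07% of members and 1.72%, 2.25% and 2.69% of DFL-only regions, with intervals apart in the middle class alone. Of all HOXA13 regions, 17.5% held the AT-rich and 3.23% the CpG form. The share of members with either form was below the background, and it was 22.7% among members with a HOX13 fold of at least 5 and 14.4% among the rest.

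Matches gathered at the summit. The closest HOX13 letters lay within 25 bp in 6.33% of members, at 25 to 50 bp in 5.42%, at 50 to 75 bp in 3.34% and at 75 to 100 bp in 2.14%. At the H3K27ac summit, the same letters were in 5.30% of members, 2.50% of PFL-only regions without HOX13 and 2.55% of all PFL regions. HOX13 letters were thus more frequent at H3K27ac summits where a HOX13 region was called.

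Members and DFL-only regions also differed in the letters of MEIS, a family of TALE homeodomain proteins made in the proximal limb bud. The letters CTGTCA were in 15.6% (14.4 to 16.9) of members, 9.47% (8.70 to 10.3) of DFL-only regions with HOX13, 11.6% of shared regions with HOX13 and 12.3% of all HOXA13 regions. With HOX13 folds of at least 5 the shares were 16.6% (14.5 to 18.9) in members and 8.27% (7.31 to 9.34) in DFL-only regions, and outside promoters 15.5% in members and 9.42% in DFL-only regions. Median GC at the HOX13 summit was 44.8% in members and 43.3% in DFL-only regions. Within windows of under 40%, 40 to 50% and at least 50% GC, members held CTGTCA in 10.9%, 15.8% and 19.6%, against 7.30%, 9.71% and 13% of DFL-only regions. Intervals were apart in each GC class. At the H3K27ac summit, however, CTGTCA was in 15% of members, 15.3% of PFL-only regions without HOX13, 14.0% of DFL-only regions, 12.3% of shared regions with HOX13 and 13.5% of all PFL regions, so there members (13.8 to 16.2) stood above the shared class (11.8 to 12.8) but not apart from the other classes called in 1 piece.

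Other letters also differed at the HOX13 summits. The homeodomain letters TAATTA were in 10.2% (9.20 to 11.3) of members and 15.1% (14.2 to 16.1) of DFL-only regions, with 14.3% in all HOXA13 regions. The HOX and PBX letters TGATTNAT were in 5.51% (4.79 to 6.34) of members and 4.0% (3.50 to 4.56) of DFL-only regions, the GATA letters AGATAA in 8.04% (7.17 to 9.02) of members and 5.53% (4.94 to 6.19) of DFL-only regions, and the E-box CAGCTG, bound by bHLH factors, in 18.4% (17.1 to 19.7) of members and 16.0% (15 to 17.0) of DFL-only regions. In all HOXA13 regions these were 4.84%, 8.70% and 13%. By the same 3 GC classes, the E-box was in 11%, 17.4% and 28.3% of members and 9.20%, 17% and 26.3% of DFL-only regions, with overlapping intervals in each, so the difference in E-boxes did not hold within GC classes. Intervals of TGATTNAT also overlapped in each class, those of TAATTA were apart at 40 to 50% GC alone, and those of AGATAA below 50% GC. The TCF and LEF letters CTTTGA were in 15.5% of members, 18.3% of DFL-only regions and 16.8% of all HOXA13 regions. A match is a description of the letters and no evidence that a factor was bound.

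**Figure D3:**
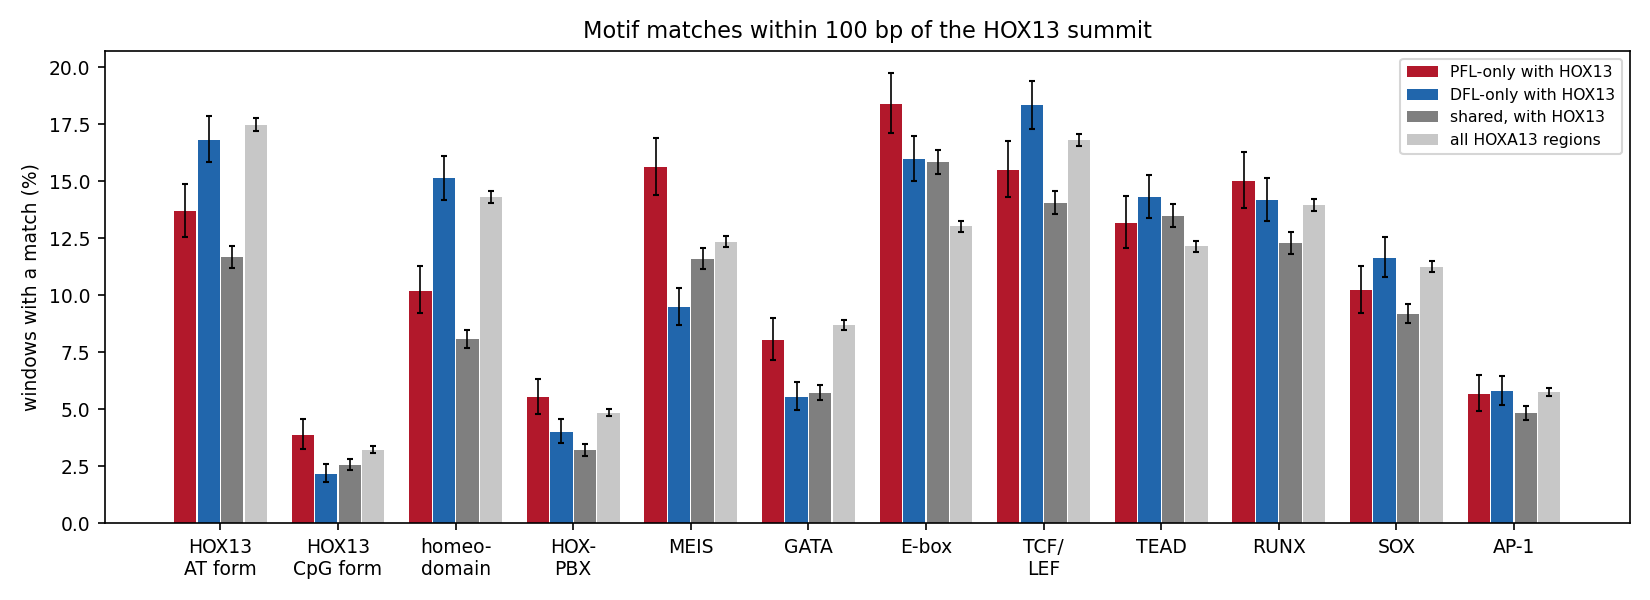
Percent of HOX13 summit windows that hold each set of letters, for members, DFL-only regions with HOX13, shared regions with HOX13 and all HOXA13 regions, with Wilson 95% intervals as error bars. Members stand above DFL-only regions for the MEIS letters (15.6% in members, 9.47% in DFL-only regions) and below them for TAATTA (10.2% in members, 15.1% in DFL-only regions).

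To see which genes had members nearby, members were counted within 50 kb of the 5 prime end of each protein-coding gene. At least 1 member was near 2101 of 21701 genes, or 9.68%. The gene with the most was Tbx18, a T-box factor gene of proximal limb and girdle mesenchyme, with 6 members, against 0 PFL-only regions without HOX13 and 2 DFL-only regions with HOX13. Upstream of its start they lay at chr9:87738173-87738602 (H3K27ac fold 1.72), chr9:87746697-87747084 (2.02), chr9:87747509-87747880 (2.41), chr9:87773007-87773275 (2.02), chr9:87773598-87774586 (4.04) and chr9:87774873-87775348 (2.95). The strongest of them, whose HOX13 window is printed above, had a HOXA13 fold of 6.12 and a HOXD13 fold of 4.36. The member at fold 1.72 overlapped H3K27me3 of both pieces. Neighbouring calls count apart in the 6. The members that start at 87746697 and 87747509 share their strongest HOX13 summit, as do those that start at 87773598 and 87774873.

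Alx1, a homeobox gene of craniofacial and limb mesenchyme, had 3 members, 4 PFL regions and no DFL region within 50 kb. They lay at chr10:103026874-103027152 (fold 1.99), chr10:103027375-103027777 (2.20) and chr10:103027892-103028695 (3.41), with the nearest DFL region 207306 to 208849 bp away. H3K27me3 overlapped the middle one in both pieces and the strongest one in PFL. Sall1, a zinc finger gene of the limb bud mutated in Townes-Brocks syndrome in humans, had 3 members among 7 PFL and 5 DFL regions. After Tbx18, Nrde2 came next with 4 members, among 15 PFL and 12 DFL regions.

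Others of the 20 genes with the most members were Ccdc30, Ppcs and Zmynd12, which share 3 members, Gpr157, Slc2a5 and Slc2a7, which also share 3, and Dnah14, Snx6, Ltbp2, Pdlim5, Abhd12b, Hmgcll1, Ccnyl1, Tmtc1 and Copz1, with 3 each.

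Counted by gene lists, 10 of 19 proximal limb genes had a member, 9 of 19 distal limb genes, 5 of 13 limb mesenchyme genes, 4 of 10 tendon genes, 5 of 16 cartilage and joint genes, 11 of 30 Wnt, BMP and FGF signalling genes and 3 of 10 girdle genes, against 9.68% of all genes. PFL-only regions without HOX13, which lay near 52.2% of all genes, were near 14 of 19 proximal and 14 of 19 distal limb genes, 9 of 10 tendon genes and 13 of 16 cartilage and joint genes. DFL-only regions with HOX13 were near 10 of the 19 proximal limb genes and 14 of the 19 distal limb genes, with 11.7% over all genes. Proximal and distal lists thus had members at like shares. Both count the same members of the Hoxa11 and Hoxd8 promoters, so these shares cannot tell whether the lists separate by piece. Of the other lists, 2 of 12 retinoic acid genes (Rarg and Stra6), 11 of 12 HoxA, 6 of 9 HoxC, 10 of 10 HoxD and 0 of 10 HoxB genes had a member. Neighbours share members: Hoxa9, Hoxa10 and Hoxa11 of the proximal list and Hoxa13 of the distal list count 1 member of the Hoxa11 promoter. Hoxd8, Hoxd9, Hoxd10 and Hoxd11 of the proximal list and Evx2, Hoxd12 and Hoxd13 of the distal list count that of the Hoxd8 promoter. Outside the Hox loci, Tbx18, Pkdcc and Tbx15 of the proximal list had a member, and Sall1, Bmp2, Lhx9, Sall3 and Tbx2 of the distal list.

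Among single genes of the lists, Pkdcc had 2 members, 6 PFL-only regions without HOX13 and no DFL region of any kind within 50 kb. Its members were chr17:83166607-83166905, with an H3K27ac fold of 2.41, a HOXA13 fold of 13.9 and a HOXD13 fold of 13.6, and chr17:83178632-83178976, with an H3K27ac fold of 2.54 and a HOXA13 fold of 1.84. Hand2, a bHLH gene of the posterior limb bud, Spry1, an inhibitor of receptor tyrosine kinase signalling, Wnt11 and Runx3 had 2 members each. Grem1, a BMP antagonist, had 1 member among 6 PFL regions and no DFL region. That member, within Scg5, was near the caller's threshold, with a fold of 1.94, a −log10 q of 1.45 and a summit of 24 reads, the lowest height among members. An intergenic member at chr5:119832213-119832619 lay next to the 5 prime end of Tbx5, the forelimb identity gene, at 119832668, and 2044 bp from the nearest transcript start used here. This member had the highest summit of all, 374 reads, but a fold of 1.33, because its local background was high too. A DFL H3K27ac region lay 581 bp from it, and CTCF of DFL overlapped it. A member in an intron of Prrx1, a limb mesenchyme factor, at chr1:163282165-163282411, had HOX13 folds of 9.12 for HOXA13 and 8.88 for HOXD13 with an H3K27ac fold of 2.12.

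Of 20 muscle genes, 5 had a member: Msc, Myf6 and Myog, which encode bHLH factors of the muscle lineage, and Myh3 and Chrna1, which encode an embryonic myosin and an acetylcholine receptor subunit. PFL-only regions without HOX13 were near 18 of the 20 and DFL-only regions with HOX13 near 2, and over all genes the shares were 9.68% for members, 52.2% for PFL-only regions without HOX13 and 11.7% for DFL-only regions. Nearness to muscle genes was thus not particular to the members. Markers of muscle cells also differed between the pieces as a whole. H3K27ac stood at the promoters of 5 of 6 muscle markers in PFL and 1 of 6 in DFL, with Pax3 unmarked in both, and the part of this in the muscle list was not tested. Tendon genes with members were Dcn and Mkx with 2 each and Fmod and Tgfb2 with 1, and cartilage genes were Acan, Col2a1, Comp and Sox5 besides Runx3. The 2 members of Dcn share their strongest HOX13 summit, as do the 2 of Mkx.

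Lists of other cell types and of housekeeping genes stood on both sides of the 9.68% of all genes. No blood gene of 12 had a member, and 1 of 12 endothelial genes did (8.33%), Pecam1 with 2 that share their strongest HOX13 summit. A member was near 1 of 12 housekeeping genes (8.33%), 2 of 12 nerve and glia genes (16.7%) and 4 of 15 ectoderm genes (26.7%), among them Krt18 with 2. Of markers fixed for these cell types, PFL and DFL H3K27ac stood at promoters of 4 and 5 of 5 endothelial, 2 and 2 of 4 blood, 2 and 5 of 5 ectoderm, and 1 and 1 of 4 nerve and glia genes. Limb mesenchyme promoters were marked at 6 of 6 in both pieces, and of the hindlimb genes Tbx4 was marked and Pitx1 was not.

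**Figure D4:**
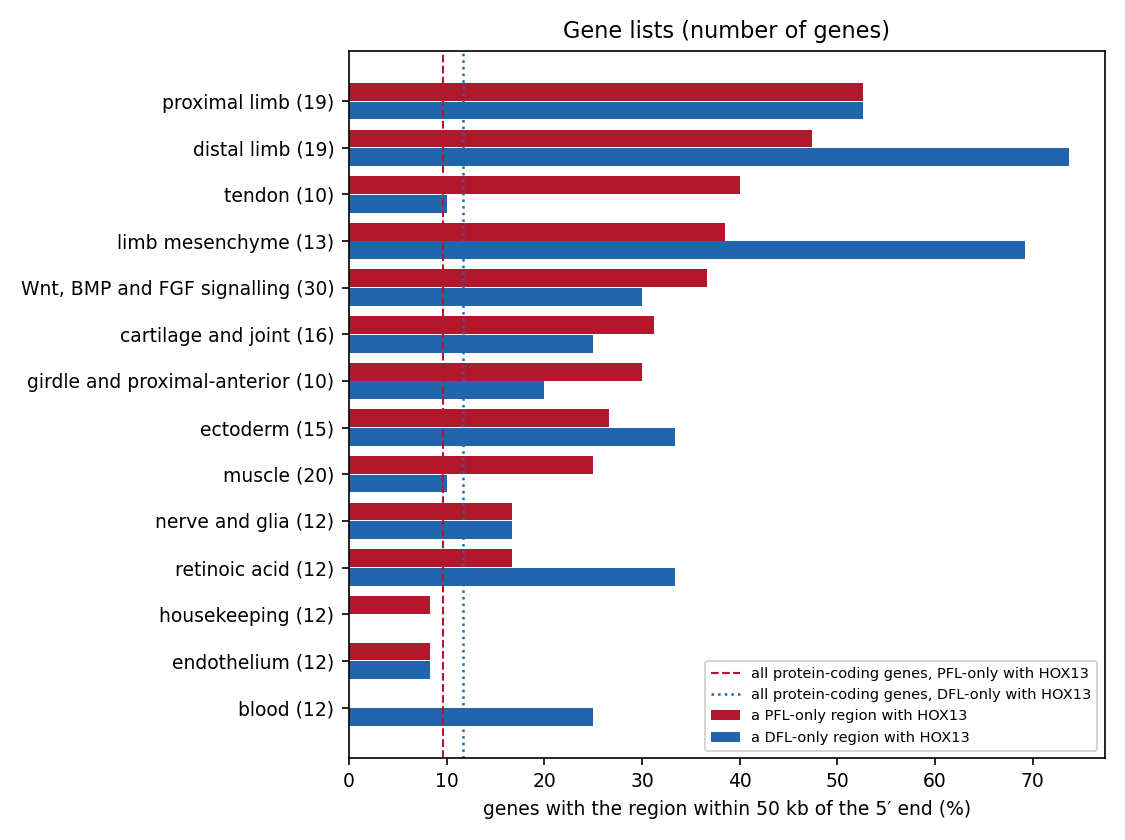
Percent of the genes of each list with at least 1 region within 50 kb of the 5 prime end, for members (upper bars) and DFL-only regions with HOX13 (lower bars), with the share of all genes as lines. Members were near 52.6% of proximal and 47.4% of distal limb genes, against 9.68% of all genes, and DFL-only regions with HOX13 were near 73.7% of distal limb genes. Both limb lists count the same members of the Hoxa11 and Hoxd8 promoters.

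Members seldom stood together. With gaps of up to 25 kb, 2508 (75.6%) stood alone, and 38 chains of 3 or more held 123 members. The longest chain had 7 members over 77.7 kb at chr6:50925791-51003480, in the gene desert next to Npvf, 271352 to 348700 bp from a start. H3K27ac folds in it ran between 1.84 and 3.85 and HOX13 folds up to 9.42. The interval held 16 PFL and 4 DFL H3K27ac regions in all, so other PFL regions stood between the members. The next chains had 5 members near Jarid2 and 4 each near Shb and Slc25a51, Fermt2 and Gnpnat1, and Btbd9. Chains of 3 members lay near Rab28, Gbp5 and Pdlim5, Prex1, Gm21915, and Clmn and Dicer1.

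Finally, the HoxD locus, whose landscapes the study was about, was examined from Atf2 to Hnrnpa3 (chr2:73816509-75669407). It held 15 members, 29 PFL-only regions without HOX13 and 37 DFL-only regions with HOX13. Of the 15 members, 13 lay on the T-DOM side, 2 in the cluster between Evx2 and Hoxd1 and none on the C-DOM side, where a count of 0 of 15 allows a share of up to 20%. Of the DFL-only regions with HOX13, 2 of 37 lay on the T-DOM side and 32 on the C-DOM side. PFL-only regions without HOX13 were placed like the members, with 23 of 29 on the T-DOM side and 2 on the C-DOM side, also mostly away from the C-DOM side. Shared regions with HOX13 lay on both sides, 16 on the T-DOM and 14 on the C-DOM side.

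**Figure D5:**
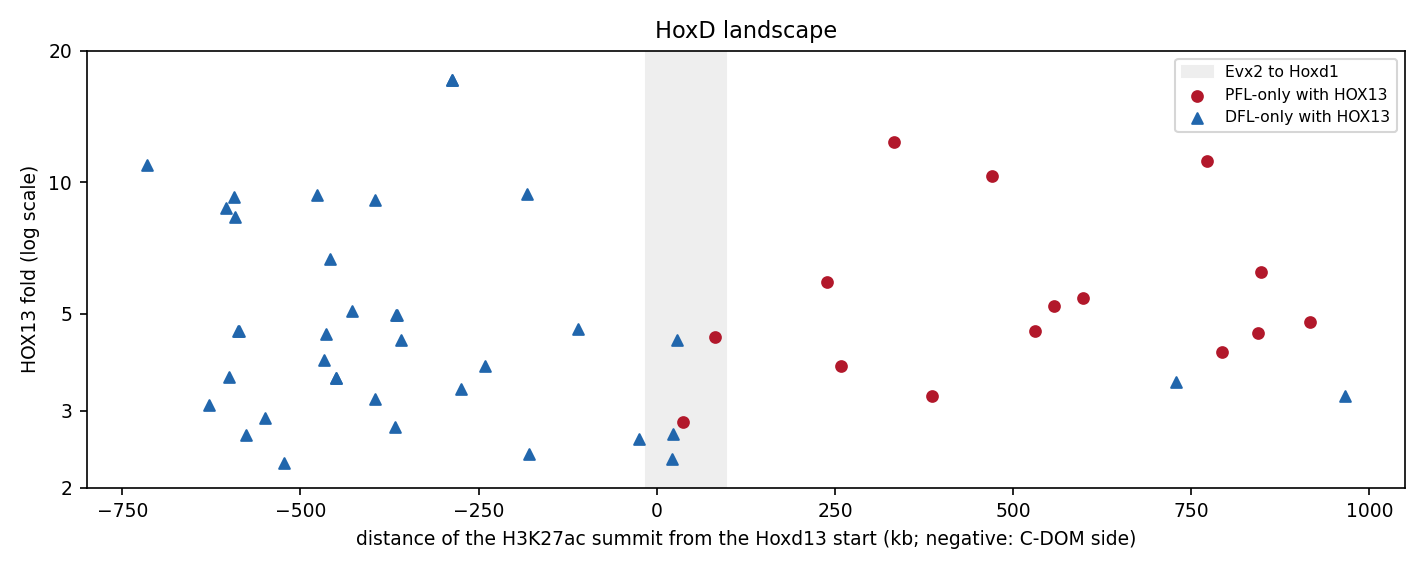
HOX13 fold of the strongest overlapping HOX13 region, on a log axis, by distance in kb of the H3K27ac summit from the start of Hoxd13, for members (circles) and DFL-only regions with HOX13 (triangles), with the span from Evx2 to Hoxd1 shaded. Of the 15 members 13 lie to the right, on the T-DOM side, and of the 37 DFL-only regions 32 lie to the left, on the C-DOM side.

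Within the T-DOM side, the strongest members by H3K27ac were chr2:75584700-75585763 with a fold of 4.60 and chr2:75054616-75055352 with a fold of 4.58, which overlapped CTCF of both pieces. The strongest by HOX13 were chr2:75000532-75000776, with a HOXA13 fold of 11.1, a HOXD13 fold of 12.3 and an H3K27ac fold of 2.80, chr2:75440175-75440987, with 11.2, 8.78 and 3.06 for the same measures, and chr2:75138817-75139114, with 10.3, 8.70 and 2.48. A DFL region lay 625 bp from the first and 187 bp from the second of these, and 31005 bp from the third. The HOX13 folds of these 3 stood well above the median of 3.89 over all members.

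In the cluster, a member covered the Hoxd8 promoter at chr2:74704450-74704773, with a summit of 147 reads and an H3K27ac fold of 2.14. It overlapped H3K27me3 of DFL but not of PFL, although a PFL H3K27me3 region lay 326 bp away. The other, chr2:74749730-74750056 near Hoxd3, had a fold of 2.25. At the HoxA cluster with 300 kb on each side (chr6:51855590-52618378), there were 6 members, 12 PFL-only regions without HOX13 and 8 DFL-only regions with HOX13. Among them, 2 were nearest to Skap2, 1 to Hoxa11 and 1 to Evx1. The Hoxa11 member, chr6:52244532-52244792 at the promoter of a gene that patterns the forearm, had a summit of 367 reads, an H3K27ac fold of 1.27, a HOXA13 fold of 10.5 and a HOXD13 fold of 9.09, with a DFL region 323 bp away.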

How the data were processed

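The 6 ChIP-seq samples of wild-type E12.5 forelimb (H3K27ac, H3K27me3 and CTCF in PFL and DFL) were used as peak lists, grouped by the tissue and mark in their labels, together with 2 lists of HOXA13 and HOXD13 with no sample in the series (2 files), which were used as the authors' lists. According to the study's methods and the labels, reads were trimmed with cutadapt, aligned to mm10 with Bowtie, filtered with SAMtools at a mapping quality of 30, and peaks were called per library with MACS2 and no input control. The weakest regions of all 8 lists stood near a q of 0.05. The deposited lists give for each summit a fold, which is the authors' ratio of summit to local background, and the authors' −log10 p-value and −log10 q-value, with no read totals, so depth is known only through the background (for PFL H3K27ac, 11.9 reads at its lowest).

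Lines with the same interval were collapsed, and regions on other chromosomes left out. Overlap was at least 1 bp. Summit reads were solved from fold and −log10 p by the Poisson tail (tolerance 0.001). Starts were those of GENCODE genes on GRCm38, whose chromosome lengths were checked to hold all regions, and 54 symbols that are not unique were left out of gene counts. Shares have Wilson intervals (statistics in scipy 1.17.1, numpy 2.4.6, pandas 2.3.3, Python 3.11.15). Overlap, summit read and motif steps were tested on simulated data.

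Members and gene lists were chosen with earlier results of these data known. Genes and members named in the text were the 20 genes with the most members within 50 kb, the 10 longest chains, the 10 highest members by H3K27ac fold (−log10 q of at least 5) and by HOX13 fold, all members of the HoxD and HoxA loci, and up to 4 genes a list. Other members and genes are named for an edge or a count of 10 or fewer, after their values were seen. Alternatives covered thresholds, overlap, windows and distances. Sequence of chromosome 18 was not printed, and a few items that this rule names are not reported here.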

Additional observations from a re-analysis of the deposited data

How the results depend on the processing

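Of 84 alternative values, 46 kept within the counting interval of the value given, or within 1.5 times of a count, and 38 moved. The number of members fell to 1061 with a HOX13 fold of at least 5, 1602 with a PFL −log10 q of at least 5, 1657 with both HOX13 lists and 1697 with a HOX13 summit inside the region. PFL H3K27me3 then overlapped 2.07% (HOX13 fold of at least 5), 2.53% (both lists), 2.68% (H3K27me3 −log10 q of at least 5), 2.72% (HOX13 −log10 q of at least 5) and 4.60% (summit inside) of members, and DFL H3K27me3 1.32% (fold), 1.48% (H3K27me3 q), 1.57% (both lists), 1.65% (HOX13 q), 3.06% (PFL q) and 3.07% (500 bp on each side of the summit). PFL CTCF overlapped 5.75% (fold), 6.68% (HOX13 q), 6.88% (both lists), 10.2% (500 bp window) and 10.4% (PFL q). The cause was not tested.

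Promoters made up 6.0% at 1 kb, 10.9% at 5 kb, 6.68% (HOX13 q), 5.18% (fold), 9.49% (summit inside), 9.43% (PFL q) and 5.11% (no DFL region within 1 kb). HOX13 letters were in 11.3% at 50 bp, 24.8% at 250 bp, 19.5% (HOX13 q), 22.7% (fold), 15.2% (summit inside), 19.6% (both lists) and 38.4% with the 2 further letter forms, an alternative chosen after seeing the data. Under it DFL-only regions held 40.6% and all HOXA13 regions 41.1%. Both factors were called at 40.1% with a summit inside. Proximal limb genes with a member fell to 31.6% with a HOX13 fold of at least 5, a PFL −log10 q of at least 5, or no DFL region within 1 kb.

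No paired analysis was possible because each mark had 1 library per piece, and there was no replicate to leave out. A region under the caller's threshold is not in a list, and 55.7% of members had a PFL summit under 1.5 times the lowest one that the DFL list holds.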

Other observations

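The rule drew unevenly on the chromosomes. Members made up between 2.38% of the PFL H3K27ac regions of the X chromosome (33 members) and 6.09% of those of chromosome 12. Near H3K27me3 of DFL, within 10 kb, lay 9.22% of members, 8.57% of PFL-only regions without HOX13, 4.59% of DFL-only regions with HOX13 and 10.1% of all PFL regions, so members were again close to the background. With all 4 HOX13 letter forms, H3K27ac summits held a match in 14.0% of members, 6.77% of PFL-only regions without HOX13 and 6.57% of all PFL regions.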
